A study of Mus musculus with 8 samples.

Results

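The tumour suppressor p53 (gene Trp53) and 9 of its best known transcriptional targets (Cdkn1a, Mdm2, Zmat3, Gdf15, Ccng1, Bax, Trp53inp1, Sesn2 and Phlda3) were followed by gene symbol through 8 bulk RNA-seq libraries of sorted mouse microglia. All 10 were among the 25238 genes shared by the 6 deposited tables. The study compared microglia with and without PRMT1, the main enzyme for asymmetric arginine dimethylation, on normal diet and on cuprizone (CPZ), a copper chelator whose feeding strips myelin from the brain. The mice were C57BL/6, 4 to 6 weeks old by the labels when the diet was given, and microglia were sorted on CD45 and CD11b. PRMT1FL mice carry floxed Prmt1 alleles, labelled PRMT1Ifl/fl and called wild type there. PRMT1Cx3cr1-KO mice carry floxed alleles plus the tamoxifen-inducible Cx3cr1 CreERT driver, which also acts in other Cx3cr1-expressing myeloid cells. By the study's methods both genotypes received tamoxifen some time before the diet, at an age that does not match that of the labels.

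There were 3 libraries from PRMT1FL on normal diet and 2 from PRMT1Cx3cr1-KO on normal diet, with a time label of 11 weeks and no CD11c gate in the labels. There was 1 library each of CD11c low and CD11c high cells from PRMT1FL and 1 of CD11c low cells from PRMT1Cx3cr1-KO, all on 0.2% CPZ with a time label of 5 weeks, and named FL-low, FL-high and KO-low from here on. CD11c (Itgax) is an integrin that marks an activated subset of microglia. The labels do not say whether replicates are separate animals or pools, so p-values measure only the spread between these libraries. In comparisons with normal diet, the diet, the gate and the time label cannot be told apart. FL-low and FL-high differ by the labels in the gate alone, with 1 library each.

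The p53 protein is held low in resting cells by MDM2, a ubiquitin ligase that is itself a p53 target. Damage and stress signals release p53, which then binds its response elements and switches on genes for cell cycle arrest, apoptosis, DNA repair and metabolic adaptation. Much of this control acts on the p53 protein, so the Trp53 transcript level is no measure of p53 activity. Several of these targets also answer to other factors, such as ATF4 for Gdf15 and Sesn2.

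A p53 response element holds a pair of 10-base motifs, the p53 decamer, separated by 0 to 13 bases. Promoter windows of 300 bases (250 before to 50 after the start site) were available from RefSeq (GRCm38.p6) for 8 of the 10 genes. The decamer was searched on both strands by name of its consensus, and each window was scored by the best pair, out of 20 consensus letters. At least 1 full decamer was present in 8.36% of the 32851 promoters in the table, a best pair of at least 19 letters in 1.09%, and a pair of 20 letters in 0.0731%. Cdkn1a, Ccng1, Bax, Mdm2 and Trp53 had a full decamer in a window, and these stretches are shown on the gene's own strand because they hold the decamers that the search found. Capitals mark the full decamers and, where the best pair scores 19, its decamer with 1 mismatched letter. Other decamers with 1 mismatched letter were not marked. The 10 bases directly after the second capital decamer of Cdkn1a are such a decamer.
Cdkn1a: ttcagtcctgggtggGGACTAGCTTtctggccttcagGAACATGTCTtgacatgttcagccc
Ccng1: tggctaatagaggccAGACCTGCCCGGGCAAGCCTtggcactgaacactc
Bax: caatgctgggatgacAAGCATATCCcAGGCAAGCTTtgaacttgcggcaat
Mdm2: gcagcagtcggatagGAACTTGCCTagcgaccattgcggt
Trp53: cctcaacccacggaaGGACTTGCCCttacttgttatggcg
The Cdkn1a stretch is chr17:29090891-29090952 on the plus strand, with decamers starting 73 and 51 bases before the upstream start site and 12 bases between them. The Ccng1 stretch is chr11:40755447-40755496 on the minus strand, with adjoining decamers from 195 bases before the start site. The Bax stretch is chr7:45467075-45467125 on the minus strand, with 1 base between its decamers. The Mdm2 stretch (chr10:117710920-117710959, minus strand) and the Trp53 stretch (chr11:69580269-69580308, plus strand) each hold a single full decamer. The windows of Gdf15, Sesn2 and Phlda3 held no full decamer, with best pairs of 16 letters, a score reached by 89.3% of all promoters. A second Cdkn1a window, at the downstream start site, also held no full decamer, with a best pair of 15 letters. These windows leave out introns and distal sites, and a match is a description of letters, not a measured binding site.

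Levels are given as scaled reads, that is, whole reads divided by 1 size factor per library. Per kilobase of the deposited transcript, mean levels over the 8 libraries ran from 245 scaled reads for Cdkn1a, 198 for Trp53, 154 for Gdf15, 131 for Bax and 124 for Mdm2 down to 90.9 for Ccng1, 47.6 for Trp53inp1, 44.8 for Sesn2 and 4.98 for Phlda3, with Zmat3 between the last 2. In PRMT1FL on normal diet Trp53 was highest per kilobase, at 193 to 226 scaled reads over the 3 libraries, above Cdkn1a at 130 to 171. The neighbouring pairs Cdkn1a and Mdm2, Bax and Gdf15, and Trp53inp1 and Sesn2 overlapped in their ranges over these libraries, and the other neighbours did not. Phlda3 was near the floor, with 0, 2 and 6 reads, and did not reach the mean of 10 scaled reads required for testing, so 9 of the 10 genes were tested.

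**Figure D1:**
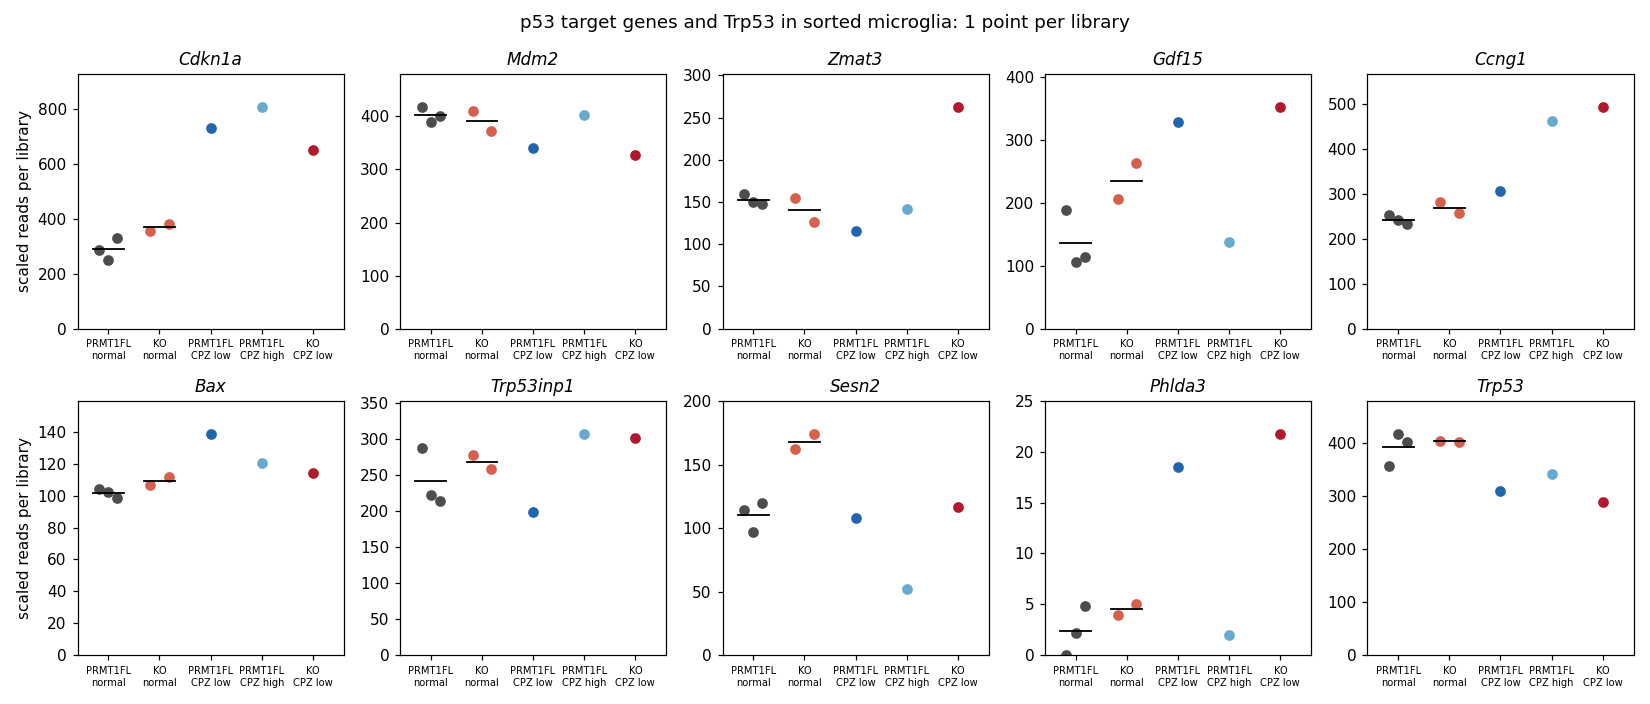
Scaled reads (y axis, linear, each panel with its own scale from 0) of Trp53 and its 9 targets in the 5 groups (x axis; KO is PRMT1Cx3cr1-KO, CPZ low and CPZ high are the CD11c gates on CPZ); each point is 1 library and each bar the mean of a group with replicates. Cdkn1a sits at 252 to 383 in the 5 normal-diet libraries and at 651 to 807 in the 3 CPZ libraries, Zmat3 stands at 262 in KO-low against 116 to 160 elsewhere, and Sesn2 is lowest, at 52.4, in FL-high.

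Libraries held 1579775 to 3520015 reads, the fewest in FL-high. Differences were tested with limma across 11218 genes in 1 fit of the 8 libraries with Benjamini-Hochberg adjustment, and a gene was called where the adjusted p was under 0.05 and the log2 fold beyond 1 in either direction. Folds are on the scale of log2(scaled reads + 1). Each CPZ group is 1 library, whose spread was taken to be that of the normal-diet replicates. Prmt1 itself was at 85.7, 91.2 and 90.4 scaled reads in PRMT1FL and 60.4 and 82.1 in PRMT1Cx3cr1-KO on normal diet, and at 117, 101 and 80.4 in FL-low, FL-high and KO-low on CPZ. It was lower in PRMT1Cx3cr1-KO by values that did not pass the test (log2 fold -0.34 ± 0.17 SE, adjusted p = 0.612 on normal diet; -0.54 ± 0.26, adjusted p = 0.252 on CPZ), and reads over the floxed exons could not be separated from the rest of the gene. All 10 microglial markers had at least 10 reads in every library, with summed levels of 10752 to 19313 scaled reads.

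Markers of other cells differed between libraries. The 9 endothelial and mural markers, all with reads in every library, summed to 433 to 477 scaled reads in PRMT1FL on normal diet. They summed to 513 to 552 in PRMT1Cx3cr1-KO on normal diet. On CPZ they summed to 1558, 1166 and 947 in FL-low, FL-high and KO-low. Of these sums Flt1 made up 451, 594 and 532, against 20.9 to 37.6 on normal diet. Pecam1 was lower on CPZ, at 81.6, 27.2 and 71.9 against 205 to 234. In KO-low Flt1, Kdr, Rgs5 and Vtn were above every normal-diet library. Cldn5, Ly6c1, Slco1a4, Pdgfrb and Pecam1 were not. The 10 astrocyte markers, all with reads in every library, summed to 1092 to 1238 in PRMT1FL and to 1520 and 1592 in PRMT1Cx3cr1-KO on normal diet, and to 2134, 1339 and 1160 in FL-low, FL-high and KO-low. The 8 oligodendrocyte markers, likewise with reads in every library, summed to 1622 in FL-low and to 819 to 1428 in the others. The 8 neutrophil markers summed to 786 in FL-low, 231 to 584 on normal diet, 54.3 in FL-high and 5.7 in KO-low, where 6 of the 8 were at 0. The 8 monocyte and border macrophage markers summed to 233 in FL-high and 368 to 677 in the others. In FL-high Ccr2, Cd163, F13a1, Lyve1 and Mrc1 were below every normal-diet library, and Ly6c2 and Pf4 were not. Ms4a7 went the other way, at 34.1, 46.6 and 87.0 in FL-low, FL-high and KO-low against 8.1 to 26.2 on normal diet. Neuronal markers summed to at most 27.5 and lymphocyte markers to at most 2.8. The part of these cells in the diet, gate and genotype differences below was not tested. In bulk samples fewer cells of a type and less RNA per cell cannot be told apart.

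On CPZ the p53 targets did not move as a block. In FL-low cells, 2 of the 9 tested genes rose and none fell, against 12.8% of all 11218 genes called (979 higher, 460 lower). In FL-high cells, 1 rose and 1 fell, against 16.3% of all genes (1013 higher, 810 lower). The share of higher among all calls in that comparison was 55.6%, and 44.5% when every library was scaled to a common total, which moved the median log2 fold of all genes from -0.01 to -0.15. Both comparisons share the 3 PRMT1FL normal-diet libraries. In KO-low cells against PRMT1Cx3cr1-KO on normal diet none of the 9 was called, against 8.49% of all genes (573 higher, 379 lower). In that comparison 5 of the 9 had an unadjusted limma p under 0.05, beside 3777 of all 11218 genes. Of the 9, 4 had an adjusted p under 0.05 with a log2 fold inside 1, which was not counted over all genes. Neither edgeR nor DESeq2 called any of the 9. The median log2 fold of the 9 genes was -0.02, 0.07 and 0.17 in the 3 comparisons in that order, beside -0.03, -0.01 and 0.00 over all genes.

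**Figure D2:**
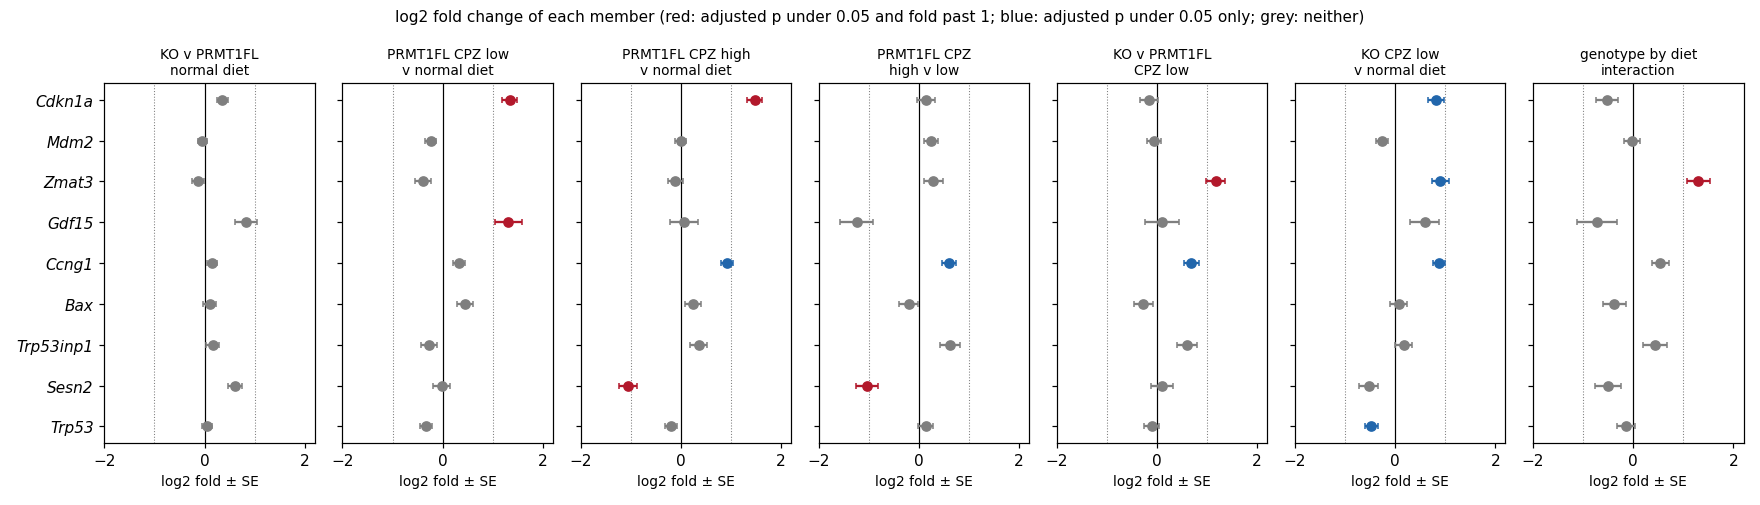
Log2 fold change with its standard error (x axis) for the 9 tested genes (y axis) in 7 comparisons, one panel each; dotted lines mark a log2 fold of 1 in either direction, red points are called, blue points have an adjusted p under 0.05 only, grey points neither. Cdkn1a is red in both PRMT1FL CPZ panels (1.34 and 1.48), Zmat3 in the genotype comparison on CPZ (1.17) and in the interaction (1.30), and Sesn2 is at -1.05 and -1.03 in the 2 panels of CD11c high cells.

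Trp53 (chr11:69580359-69591873, plus strand) was at 356, 417 and 401 scaled reads in PRMT1FL and 404 and 402 in PRMT1Cx3cr1-KO on normal diet. It was at 310 in FL-low, 342 in FL-high and 289 in KO-low. All 3 CPZ libraries were below all 5 normal-diet libraries. The gap had an adjusted p under 0.05 in PRMT1Cx3cr1-KO alone (0.717-fold, log2 fold -0.48 ± 0.13 SE, adjusted p = 0.0284), inside the fold threshold. The PRMT1FL values were -0.33 ± 0.12 (adjusted p = 0.0625) in CD11c low and -0.19 ± 0.12 (adjusted p = 0.24) in CD11c high cells, and the genotype by diet interaction was -0.15 ± 0.18 (adjusted p = 0.723), so a difference between the genotypes was not detectable.

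Mdm2 (chr10:117688875-117710758, minus strand), the p53-induced brake on p53, was the steadiest of the tested genes. It was at 417, 390 and 401 scaled reads in PRMT1FL and 411 and 372 in PRMT1Cx3cr1-KO on normal diet, and at 341, 402 and 326 in FL-low, FL-high and KO-low on CPZ. Its highest library was 1.28 times its lowest, the smallest such ratio among the 9. The log2 fold on CPZ was -0.24 ± 0.11 (adjusted p = 0.137), -0.00 ± 0.11 (adjusted p = 0.984) and -0.26 ± 0.12 (adjusted p = 0.16) in these 3 groups, and counting error alone gave 95% intervals for the ratio of 0.76 to 0.945, 0.857 to 1.16 and 0.734 to 0.942.

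Cdkn1a (chr17:29090979-29100722, plus strand) encodes p21, which inhibits cyclin-dependent kinases and halts the cell cycle. It was at 288, 252 and 331 scaled reads in PRMT1FL and 358 and 383 in PRMT1Cx3cr1-KO on normal diet. It was at 732 in FL-low, 807 in FL-high and 651 in KO-low on CPZ. The CPZ and normal-diet libraries did not overlap in either genotype. Cdkn1a rose 2.53-fold in FL-low (log2 fold 1.34 ± 0.15 SE, adjusted p = 0.00018) and 2.79-fold in FL-high cells (1.48 ± 0.15, adjusted p = 4.17e-05). Both calls held under every alternative that was run. The value in PRMT1Cx3cr1-KO was 1.75-fold (0.81 ± 0.16, adjusted p = 0.00605), inside the fold threshold. Its smaller size was not shown to differ by genotype (interaction -0.53 ± 0.21, adjusted p = 0.244). An annotated antisense gene shares 273 exon bases with Cdkn1a, and the strand setting of the counting is not stated, so its reads may include antisense reads.

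The 5 genes whose pattern over the 8 libraries was most like that of Cdkn1a, by the root mean square difference of centred log2 values among 8499 genes, were Dpp7 (0.09), Speg (0.096), Rhbdf2 (0.126), Itga5 (0.127) and Sptbn1 (0.133). Of the other tested genes among the 10, the nearest was Ccng1, at rank 475 (0.353), while Trp53 was at rank 6107 and Sesn2 at rank 7712. For Trp53 the 5 nearest were Ppp1r2, Cebpg, Mast3, Hnrnpa3 and Phf14 (0.045 to 0.054), and Mdm2 was at rank 401 (0.13). These likenesses rest on 8 libraries and are given without a test.

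Ccng1 (chr11:40748552-40755286, minus strand) encodes cyclin G1, which binds the phosphatase PP2A and MDM2. It was at 253, 242 and 234 scaled reads in PRMT1FL and 282 and 257 in PRMT1Cx3cr1-KO on normal diet. It was at 306 in FL-low, 462 in FL-high and 493 in KO-low on CPZ. The 3 CPZ libraries were the 3 highest. The value in FL-high was 1.90-fold that of normal diet (log2 fold 0.93 ± 0.12, adjusted p = 0.000189) and in KO-low 1.83-fold (0.87 ± 0.12, adjusted p = 0.00119). FL-low was at 1.26-fold (0.33 ± 0.12, adjusted p = 0.0527). Between CD11c low cells of the 2 genotypes the value was 1.61-fold higher in PRMT1Cx3cr1-KO (0.69 ± 0.14, adjusted p = 0.0349). It was 1.51-fold higher in CD11c high than in CD11c low cells of PRMT1FL (0.59 ± 0.14, adjusted p = 0.0457). The interaction was 0.54 ± 0.17 (adjusted p = 0.15). All of these lie inside the fold threshold of a call.

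Bax (chr7:45461695-45466898, minus strand) encodes the effector that opens the mitochondrial outer membrane in apoptosis. It was at 104, 102 and 98.5 scaled reads in PRMT1FL and 107 and 112 in PRMT1Cx3cr1-KO on normal diet, and at 139, 120 and 114 in FL-low, FL-high and KO-low on CPZ. The CPZ values were the highest within each genotype, by small margins. The log2 fold was 0.45 ± 0.16 (adjusted p = 0.0533), 0.24 ± 0.16 (adjusted p = 0.252) and 0.07 ± 0.17 (adjusted p = 0.812) in these 3 groups. Bax shares 192 exon bases with a gene model on the same strand (Gm45808), so the counts of the 2 may not be fully separate.

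Trp53inp1 (chr4:11156441-11174379, plus strand), which encodes a p53-induced nuclear protein that promotes apoptosis and autophagy, was at 287, 222 and 214 scaled reads in PRMT1FL and 277 and 258 in PRMT1Cx3cr1-KO on normal diet. It was at 198, 307 and 301 in FL-low, FL-high and KO-low on CPZ. The FL-low library was the lowest of the 8 and the other CPZ libraries were the highest, but no comparison passed. The widest were CD11c high against CD11c low (log2 fold 0.63 ± 0.20, adjusted p = 0.098) and PRMT1Cx3cr1-KO against PRMT1FL in CD11c low cells (0.60 ± 0.20, adjusted p = 0.112).

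Phlda3 (chr1:135766085-135769134, plus strand) encodes a small pleckstrin homology protein that holds back AKT at the membrane. It had 0, 2 and 6 reads in PRMT1FL and 5 and 6 in PRMT1Cx3cr1-KO on normal diet. It had 25 reads in FL-low, 1 in FL-high and 23 in KO-low cells on CPZ. Both CD11c low libraries were above the other 6. Corrected for library size, the ratio to normal diet was 6.93 (95% exact counting interval 3.03 to 17.8) in PRMT1FL and 4.86 (2.28 to 11) in KO-low cells, and CD11c high stood at 0.105 (0.00255 to 0.639) of CD11c low. These intervals cover counting error only. With no filter on low values, limma called none of its comparisons (adjusted p = 0.171 for FL-low and 0.389 for KO-low).

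Zmat3 (chr3:32334794-32365665, minus strand) encodes a zinc finger RNA-binding protein that acts on splicing and transcript stability. It was at 160, 150 and 148 scaled reads in PRMT1FL and 155 and 126 in PRMT1Cx3cr1-KO on normal diet. It was at 116 in FL-low, 142 in FL-high and 262 in KO-low on CPZ. A single library stood above the other 7, and the PRMT1FL CPZ libraries lay below the PRMT1FL range on normal diet. Between CD11c low cells Zmat3 was 2.25-fold higher in PRMT1Cx3cr1-KO than in PRMT1FL (log2 fold 1.17 ± 0.19 SE, adjusted p = 0.018), 1 of the 9 tested genes called against 2.18% of all genes (109 or 0.972% higher, 135 or 1.2% lower). Under a common total, 29.6% of all calls in that comparison were higher, and with no filter 15.2%, against 44.7% here. The call was lost with no filter on low values (adjusted p = 0.0533) and in DESeq2 (adjusted p = 0.0635).

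The diet difference of Zmat3 was 1.87-fold in PRMT1Cx3cr1-KO (log2 fold 0.90 ± 0.16, adjusted p = 0.00467) and 0.76-fold in FL-low cells (-0.40 ± 0.16, adjusted p = 0.0773). The genotype by diet interaction, the test of that difference, was 1.30 ± 0.23 (adjusted p = 0.0354), and Zmat3 was the 1 gene of the 9 called in it, against 0.865% of all genes (0.143% higher, 0.722% lower). This call was lost without PRMT1FL replicate 2 (adjusted p = 0.0651), PRMT1FL replicate 3 (adjusted p = 0.054) or PRMT1Cx3cr1-KO replicate 2 (adjusted p = 0.0839), with no filter (adjusted p = 0.0664) and in DESeq2 (adjusted p = 0.195). It rests on 1 library in each CPZ arm. The counting interval of the ratio between the 2 CPZ CD11c low libraries was 1.85 to 2.77.

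Gdf15 (chr8:70629393-70632456, minus strand) encodes a secreted stress cytokine of the TGF-beta superfamily that lowers appetite through a hindbrain receptor. It was at 189, 106 and 114 scaled reads in PRMT1FL and 207 and 263 in PRMT1Cx3cr1-KO on normal diet. It was at 328 in FL-low, 138 in FL-high and 352 in KO-low on CPZ. Both CD11c low libraries were above all others, and CD11c high lay within the PRMT1FL normal-diet range. Gdf15 rose 2.48-fold in FL-low cells (log2 fold 1.31 ± 0.28, adjusted p = 0.006), a call lost with no filter on low values (adjusted p = 0.115). CD11c high against CD11c low was -1.25 ± 0.34 (adjusted p = 0.0661), which passed under a common total (-1.50, adjusted p = 0.0238) and without PRMT1FL replicate 1 (-1.24, adjusted p = 0.0069). Gdf15 and Phlda3 shared the order of the CPZ libraries, with both CD11c low libraries far above CD11c high.

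Sesn2 (chr4:132492807-132510456, minus strand) encodes sestrin 2, a leucine sensor that restrains mTORC1. It was at 115, 96.7 and 120 scaled reads in PRMT1FL and 162 and 174 in PRMT1Cx3cr1-KO on normal diet. It was at 108 in FL-low, 52.4 in FL-high (27 reads) and 116 in KO-low on CPZ. The CD11c high library was below the other 7. Sesn2 fell in CD11c high cells to 0.481-fold of normal diet (log2 fold -1.05 ± 0.18, adjusted p = 0.00108) and to 0.489-fold of CD11c low cells (-1.03 ± 0.22, adjusted p = 0.0323). The latter was the 1 call among the 9 genes between the gates, against 1.93% of all genes (77 higher, 139 or 1.24% lower, 35.6% of calls higher). That share was 3.87% under a common total, where the median of all genes moved from 0.02 to -0.23, 50.7% with no filter, 46.4% in edgeR and 76.3% in DESeq2. The call against normal diet was lost in DESeq2 (adjusted p = 0.0539) and without PRMT1FL replicate 3 (log2 fold -0.997, inside the threshold), and that between the gates with no filter (adjusted p = 0.0645), with a pseudocount of 5 (-0.98), in edgeR (adjusted p = 0.0562) and without PRMT1Cx3cr1-KO replicate 2 (adjusted p = 0.0509). The 2 comparisons share the CD11c high library.

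On normal diet, the loss of PRMT1 called none of the 9 genes, and 0% of all 11218 genes. At an unadjusted limma p under 0.05 there were 3 of the 9 and 963 of all genes, and edgeR called 0 and DESeq2 3 of all genes, none of them among the 9. The 3 were Sesn2 (1.53-fold higher in PRMT1Cx3cr1-KO, log2 fold 0.61 ± 0.14, adjusted p = 0.411), Gdf15 (1.77-fold, 0.82 ± 0.22, adjusted p = 0.414) and Cdkn1a (1.28-fold, 0.36 ± 0.12, adjusted p = 0.457). For each of them both PRMT1Cx3cr1-KO libraries lay above all 3 PRMT1FL libraries. The same held for Ccng1 and Bax, which were not under that p. How many of all genes divided in this way was not counted. The summed astrocyte markers and the summed endothelial and mural markers divided the genotypes on normal diet in the same way, and their part in these values was not tested. The median log2 fold of the 9 genes was 0.15, beside 0.00 over all genes.

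Of 35 further p53 targets listed, 34 were in the joint table and 31 were tested. Of these, Psrc1, Gtse1 and Ckap2 had at most 6.95 scaled reads in any normal-diet library, so they passed the filter only through the CPZ libraries and are left out of the counts that follow, a choice made after seeing the data. Of the other 28, in FL-low cells 7 rose and 0 fell, beside 8.73% and 4.1% of all genes, with a median log2 fold of 0.19 against -0.03 over all genes. In FL-high cells 8 rose and 1 fell (9.03% and 7.22% of all genes), with a median of 0.18 against -0.01. In KO-low cells 3 rose and 1 fell (5.11% and 3.38% of all genes), with a median of 0.13 against 0.00. None of the 31, those left-out genes included, was called between the gates, between the genotypes on either diet, or in the interaction. Of all genes, 1.93% were called between the gates and 0.865% in the interaction. Between the genotypes it was 0% on normal diet and 2.18% on CPZ.

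**Figure D3:**
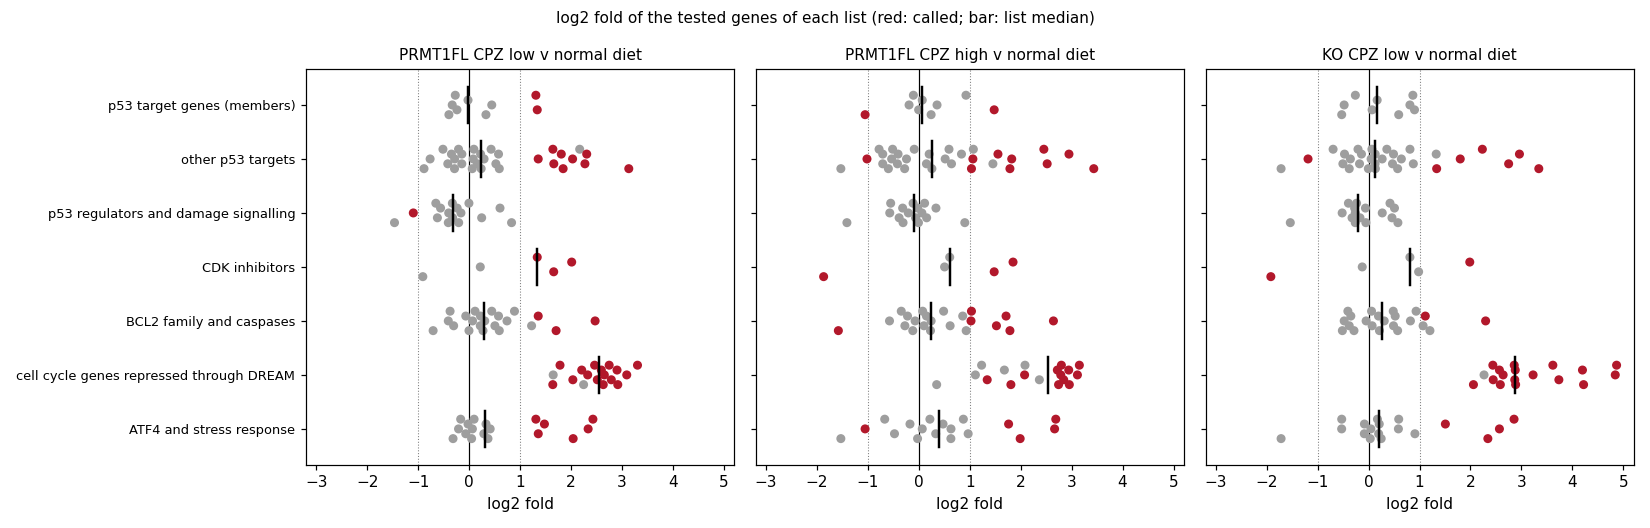
Log2 fold on CPZ (x axis) of every tested gene in 7 gene lists (y axis) for FL-low, FL-high and KO-low cells, each against normal diet of its genotype; red points are called, grey points are not, and the black bar is the list's median. The cell cycle list lies to the right, where 11 of its 18 genes passed the filter only through the CPZ libraries. The p53 targets and the further p53 targets spread over both sides of 0. The bar of the further p53 targets (0.24, 0.26 and 0.13) takes in Psrc1, Gtse1 and Ckap2, which passed the filter in that same way. So did Trib3 in the ATF4 list.

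Uncalled further targets had log2 folds on both sides of 0. In FL-low these included Rrm2b (-0.885), Sesn1 (-0.765) and Ercc5 (-0.513), and Apaf1 (0.593), Bbc3 (0.578) and Pml (0.526). In FL-high they included Aen (-0.781), Sesn1 (-0.709), Ercc5 (-0.709) and Xpc (-0.598), and Pml (0.837), Plk3 (0.641), Btg2 (0.592) and Ei24 (0.517). Among the further targets, Gadd45a, a damage-induced protein that acts at the G2/M checkpoint, went from 15.6 to 21.2 scaled reads in the 3 PRMT1FL normal-diet libraries to 96.5 in CD11c low and 107 in CD11c high cells, and from 18.8 and 22.0 to 99.3 in PRMT1Cx3cr1-KO. It rose by a log2 fold of 2.31 ± 0.30 (adjusted p = 0.000517), 2.45 ± 0.30 (adjusted p = 0.000173) and 2.23 ± 0.32 (adjusted p = 0.00131). Tigar, a phosphatase that lowers glycolytic flux, rose in the same 3 comparisons (log2 fold 1.66, 1.82 and 1.80), as did Plk2, a polo-like kinase (2.27, 3.43 and 1.34). Pmaip1, which encodes the BH3-only protein NOXA, was at 179 to 257 scaled reads in PRMT1FL on normal diet, 574 in CD11c low and 774 in CD11c high cells. It was at 154 and 245 in PRMT1Cx3cr1-KO on normal diet and 289 on CPZ. It rose in PRMT1FL (log2 fold 1.36 ± 0.25 and 1.79 ± 0.25) and the PRMT1Cx3cr1-KO value did not pass (0.57, adjusted p = 0.156), with an interaction of -0.79 (adjusted p = 0.292). Ephx1, an epoxide hydrolase, showed the same layout (1.81 ± 0.29 and 2.52 ± 0.29 in PRMT1FL; 0.88, adjusted p = 0.0774, in PRMT1Cx3cr1-KO; interaction -0.93, adjusted p = 0.295). Pltp, a phospholipid transfer protein, rose in FL-low (1.65 ± 0.33, adjusted p = 0.00514) and FL-high (1.06 ± 0.33, adjusted p = 0.0296), and Apaf1, the core of the apoptosome, rose in FL-high (1.03 ± 0.13, adjusted p = 0.000153). Pidd1, a scaffold for caspase-2, fell in CD11c high cells (-1.02 ± 0.21, adjusted p = 0.00329), and Fdxr, a mitochondrial ferredoxin reductase, fell in PRMT1Cx3cr1-KO on CPZ (-1.19 ± 0.25, adjusted p = 0.00929).

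Of 20 listed p53 regulators and damage signalling genes, 16 were tested, and 1 was called in any comparison. The share of all genes called in any comparison was not counted. Per comparison, an unlike measure, 0% to 16.3% of all genes were called. Prkdc, the catalytic subunit of DNA-PK, was at 184, 159 and 147 scaled reads in PRMT1FL and 190 and 156 in PRMT1Cx3cr1-KO on normal diet, and at 75.7, 111 and 166 in FL-low, FL-high and KO-low on CPZ. It fell in FL-low (log2 fold -1.09 ± 0.17, adjusted p = 0.00151), where 4.1% of all genes were called lower. Among CD11c low cells it was higher in PRMT1Cx3cr1-KO than in PRMT1FL (1.12 ± 0.21, adjusted p = 0.0276). There 0.972% of all genes were called higher. As for Zmat3, FL-low was the lowest library.

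Cell cycle genes that p53 and p21 lower through the DREAM repressor complex were read out beside Cdkn1a. Of 20 listed, 18 were tested, but 11 of them averaged under 10 scaled reads on normal diet and passed the filter only through the CPZ libraries, so no count is given for them. Of the other 7, in FL-low cells 6 rose, in FL-high 5 and in KO-low 6, and none fell, beside the shares of all genes given above. Mki67, the proliferation marker, was at 47.5, 23.4 and 34.2 scaled reads in PRMT1FL on normal diet, 239 in CD11c low and 231 in CD11c high cells. It was at 12.5 and 51.6 in PRMT1Cx3cr1-KO on normal diet and 779 on CPZ (log2 fold 4.87 ± 0.63, adjusted p = 0.000707). Cdk1, the mitotic kinase, rose by 2.46, 2.72 and 3.23 in FL-low, FL-high and KO-low. Ccna2, a cyclin of S phase and G2, rose by 2.33, 2.08 and 2.86, Cenpa, the centromeric histone, by 2.52, 2.84 and 2.57, and Bub1b, a spindle checkpoint kinase, by 1.64, 1.34 and 2.06. Top2a, a DNA topoisomerase, rose in FL-low (2.60 ± 0.86, adjusted p = 0.0434) and KO-low (4.84 ± 0.91, adjusted p = 0.00554). It was at 1.57 (2 reads) and 22.0 scaled reads (26 reads) in PRMT1Cx3cr1-KO on normal diet and 219 in KO-low. The KO-low fold thus leans on a library near the floor. None of these 7 genes was called between the genotypes or in the interaction. Of all genes, 0% were called between the genotypes on normal diet, 2.18% on CPZ and 0.865% in the interaction.

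Gdf15 and Sesn2 are also targets of ATF4, the transcription factor of the integrated stress response, and both stand in a list of 20 genes of that response, of which 18 were tested. Trib3, a pseudokinase, averaged 5.24 scaled reads on normal diet, so it passed the filter only through the CPZ libraries. Of the other 17, in FL-low cells 5 rose and 0 fell (8.73% and 4.1% of all genes), in FL-high 3 rose and 1 (Sesn2) fell (9.03% and 7.22%), and in KO-low 3 rose and 0 fell (5.11% and 3.38%). Psat1, a serine synthesis enzyme, was at 97.9 to 112 scaled reads in PRMT1FL on normal diet and at 522 and 666 in CD11c low and CD11c high cells (log2 fold 2.34 ± 0.14 and 2.69 ± 0.14). It was at 93.3 and 106 in PRMT1Cx3cr1-KO on normal diet and at 594 on CPZ (2.57 ± 0.15). Asns, the asparagine synthetase, rose in all 3 (2.04, 2.67 and 2.34). Atf5, a transcription factor of the same response, rose in FL-low (1.48) and FL-high (1.76), and Slc7a11, a cystine transporter, in FL-low (1.36) and KO-low (1.51). Beside Sesn2, the values of Ddit4 (-1.53), Nupr1 (-0.67), Ddit3 (-0.48), Phgdh (-0.17) and Slc7a5 (-0.025) were below 0 in FL-high and did not pass. Gdf15 rose in FL-low, and its value in KO-low did not pass (0.59 ± 0.29, adjusted p = 0.186).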

How the data were processed

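Microglial RNA was profiled in 8 libraries, grouped by their titles into 5 groups. The authors aligned reads with Bowtie2, removed duplicates with SAMtools 0.1.19, checked quality with FastQC 0.11.9 and quantified genes with HOMER. The submitters' notes list hg19, GRCm38 and mm10, and the deposited coordinates are those of mouse GRCm38. The strand setting of the counting is not stated. The signal values in the 6 deposited tables are reads times 1 factor per library, so that the columns of a table share 1 total. Whole reads were recovered by dividing by the value of 1 read (100% whole within 0.1). The authors' own columns of fold change and p-values from DESeq2 were not used. Libraries held 1579775 to 3520015 reads, and squared differences between replicates were 2.23 to 3.48 times counting error.

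Recovered reads were joined over the tables (25154 genes; 84 left out because their reads differed by more than 1 read and more than 5%), scaled by median of ratios and fitted as log2(value + 1) with limma 3.58.1 in R 4.3.3 (eBayes with trend, two-sided) for the 11218 genes averaging 10 scaled reads or more. The 8 libraries entered 1 fit, since 1 library against 1 leaves no spread. The fit was also run on simulated data in which all libraries had the same spread, with a lower fold threshold for a call. That run cannot test whether a lone CPZ library has the spread of the normal-diet replicates. Alternatives were TMM and common-total scaling, other filters, a pseudocount of 5, robust eBayes, edgeR 4.0.16, DESeq2 1.42.0, each normal-diet replicate left out, each comparison's own table and a replicate block. Counting intervals are exact binomial 95% intervals. The text names the 10 genes, Prmt1, the called genes of each list (at most the 6 with the highest mean per comparison) and the 5 genes most like Cdkn1a and Trp53. The genes and lists were chosen with earlier results of these data known. Cenpe, which passed the filter only through the CPZ libraries, is left out of the results. Psrc1, Gtse1, Ckap2 and Trib3 are named for that filter. Cdkn2a, the uncalled ATF4 genes and the uncalled further p53 targets were chosen after their values were seen. Promoters come from RefSeq, and overlaps of genes from GENCODE.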

Additional observations from a re-analysis of the deposited data

Results flagged for a closer look

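Zmat3 was called in the genotype by diet interaction of CD11c low cells, at 1.30 on the log2 scale (limma, adjusted p = 0.0354). Its log2 fold on CPZ was 0.90 in PRMT1Cx3cr1-KO and -0.40 in PRMT1FL. The CPZ and normal-diet libraries also differ in gate and time label, and the call was lost under some alternatives. The adjusted p over the alternatives ran from 0.0138 to 0.195, and each CPZ arm is 1 library.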

How the results depend on the processing

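Of 913 values of the tested genes under the alternatives, 875 kept their direction and their side of the threshold. The reversals all concern values that were not called. Common-total scaling gave, for CD11c high against low, Cdkn1a -0.11, Mdm2 -0.017 and Trp53 -0.11; for FL-high, Gdf15 -0.074; for the genotypes on CPZ, Gdf15 -0.008 and Sesn2 -0.007; and for FL-low, Sesn2 0.089. The own-table fits gave Gdf15 -0.074 in CD11c high and Sesn2 0.089 in CD11c low. DESeq2 gave Mdm2 0.009 in CD11c high, and TMM an Mdm2 interaction of 0.01.
Leaving out each normal-diet replicate in turn gave ranges of -0.117 to 0.026 for Mdm2, -0.278 to 0.021 for Zmat3 and -0.023 to 0.089 for Trp53 between genotypes on normal diet, -0.03 to 0.018 for Mdm2 and -0.094 to 0.322 for Gdf15 in CD11c high, -0.118 to 0.038 for Sesn2 in CD11c low, and -0.091 to 0.05 for the Mdm2 interaction.

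Counts of all genes called moved by over 1.5 times as follows. Between genotypes on normal diet (0 called) there were 12 with no filter, 3 in DESeq2 and 0 to 37 with a replicate left out. A mean of at least 50 gave 759 of 1439 in FL-low and 1111 of 1823 in CD11c high, 548 of 952 in PRMT1Cx3cr1-KO on CPZ and 60 of 97 in the interaction. For CD11c high against low (216) there were 574 with no filter, 76 in DESeq2 and 135 to 366 with a replicate left out. For the genotypes on CPZ (244) there were 128 in DESeq2, 466 in edgeR and 167 to 486 with a replicate left out. For PRMT1Cx3cr1-KO on CPZ (952) there were 495 with no filter and 634 in DESeq2. For the interaction (97) there were 288 with no filter, 233 in edgeR and 20 to 200 with a replicate left out, the fewest without PRMT1Cx3cr1-KO replicate 2 and the most without PRMT1FL replicate 1.

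Of the 9 p53 genes, the number called in FL-low (2) was 1 with no filter. In CD11c high (2) it was 1 in DESeq2 and 1 to 2 with a replicate left out. For CD11c high against low (1) it was 2 under a common total, 0 with no filter, a pseudocount of 5, edgeR or DESeq2 (where the adjusted p of Sesn2 was NA), and 0 to 2 with a replicate left out. For the genotypes on CPZ (1) and for the interaction (1) it was 0 with no filter and 0 in DESeq2, and for the interaction 0 to 1 with a replicate left out. In PRMT1Cx3cr1-KO on CPZ (0) it was 0 to 1, with Zmat3 at 1.05 without PRMT1Cx3cr1-KO replicate 1. Beyond fewer or more genes and samples in a fit, the cause was not tested.

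With a replicate block, 7 genes were called between the genotypes on normal diet, none of the 9 among them. The labels do not say that the numbers pair libraries, and same-numbered deviations correlated at 0.073 and -0.002, so the numbers were not taken as pairs. Fits on the own table could not be run where it held no replicates (CD11c high against low, and the genotypes on CPZ). Using an agreement limit of 1 read between tables, an alternative chosen after seeing the data, changed no call of the 9. The depth of FL-high limits Sesn2 (27 reads) and Phlda3 (1 read).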

Other observations

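The other CDK inhibitors moved in different directions on CPZ. Of 7 listed, 5 were tested, Cdkn1a among them. Cdkn2c, which encodes the CDK4 and CDK6 inhibitor p18, was at 19.5 to 27.8 scaled reads in PRMT1FL and 20.4 and 26.2 in PRMT1Cx3cr1-KO on normal diet, and at 100.2, 89.3 and 94.6 in FL-low, FL-high and KO-low on CPZ. It rose in all 3 (log2 fold 2.01 ± 0.31, 1.85 ± 0.31 and 1.99 ± 0.33). Cdkn2d, which encodes p19 of the same family, rose in FL-low (1.66 ± 0.28). Cdkn1c, which encodes p57, was at 53.3 to 63.4 scaled reads in PRMT1FL and 87.0 and 63.5 in PRMT1Cx3cr1-KO on normal diet, and at 31.2, 15.5 and 18.9 on CPZ. It fell in FL-high (-1.87 ± 0.29) and in KO-low cells (-1.92 ± 0.30). Cdkn2a, whose alternative product ARF blocks MDM2, had 1 read in all in PRMT1FL and 1 in PRMT1Cx3cr1-KO on normal diet, and 28, 6 and 29 reads in the 3 CPZ libraries in the order above. Its mean was too low for the test, and it was singled out after its values were seen.

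In the BCL2 family and caspases, 22 of 25 listed genes were tested, Bax and Pmaip1 among them. In FL-low cells 3 rose and 0 fell (8.73% and 4.1% of all genes), in FL-high 6 rose and 1 fell (9.03% and 7.22%), and in KO-low 2 rose and 0 fell (5.11% and 3.38%). Bid, which links death receptors to mitochondria, was at 226 to 246 scaled reads in PRMT1FL on normal diet, 143 in CD11c low and 77.6 in CD11c high cells, where it fell (log2 fold -1.58 ± 0.14, adjusted p = 1.65e-05). Bcl2, the founding survival protein of the family, rose in CD11c high (1.52 ± 0.30) and in KO-low cells (1.11 ± 0.31). Bcl2a1d rose in FL-low, FL-high and KO-low (2.47, 2.64 and 2.30), Bcl2a1a in FL-low and FL-high (1.71 and 1.71) and Bcl2a1b in FL-high (1.02), and none of them was called between the gates. These near-identical copies may share reads and their separate values are uncertain.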
